A study of Mus musculus with 4 samples.

Results

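The genes described here are 42 genes of the cell cycle and of DNA replication, measured by bulk RNA sequencing in 4 sorted myeloid cell populations of tumours made by EO771, a mouse mammary cancer cell line. The genes were taken by symbol from a list, and all 42 were found among the 13976 rows of the deposited table. Of these, 15 act in S phase, when DNA is copied. Another 25, called mitotic here, act mainly in mitosis or in the G2 phase before it, though Ccna2 also acts in S phase. Stmn1 and Hmgb2 were kept apart from both groups. The populations were CD103+ type 1 conventional dendritic cells (cDC1), CD11b+ type 2 conventional dendritic cells (cDC2), dendritic cells with intermediate CD103 and with CD11b (CD103int DC) and macrophages, with 1 library each. The title of the study ties the CD103int DC to a heterodimeric interleukin-15 (hetIL-15) given locoregionally. The labels give tissue and cell type only. For each library the treatment, the mouse strain, the age, the sorting gates and the number of animals are not stated there.

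A cell that divides first licenses its replication origins with the MCM helicase, makes deoxynucleotides and copies its DNA, and then condenses, aligns and separates its chromosomes under control of cyclin-dependent kinases and of the anaphase-promoting complex. Most of the genes for these steps are transcribed mainly in cycling cells. S-phase genes are switched on mainly by E2F transcription factors, and mitotic genes later by B-MYB and FOXM1 bound to the MuvB core complex, which reads a promoter element called CHR (cell cycle genes homology region), often beside CCAAT boxes bound by NF-Y. Conventional dendritic cells arise from dividing precursors and are known to divide to some extent in tissues, and macrophages differ widely between tissues in how much they divide.

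The promoter letters of the members were not used to choose them, but the motifs searched are those already known for S-phase and mitotic genes. RefSeq promoter windows (assembly GRCm38.p6) of 250 bases before to 50 bases after the start of transcription were matched for 35 of the 42 members, 13 of them S-phase, 21 mitotic and Hmgb2. The E2F letters searched were TTTCCCGC, TTTCGCGC, TTTGCCGC and TTTGGCGC, the CHR letters TTTGAA, and the CCAAT box CCAAT, each on both strands. E2F letters were in the windows of 5 of 13 S-phase members (Mcm3, Mcm5, Mcm6, Mcm7 and Uhrf1) and of 1 of 21 mitotic members (Cdk1), beside 4.71% of the 9615 measured genes with a window and 2.60% of all 27025 genes with one. CHR letters were in 16 of 21 mitotic members and in 2 of 13 S-phase members (Cdc45 and Mcm2), beside 14.7% of measured and 20.2% of all genes. CCAAT was found in 19 of 21 mitotic and 10 of 13 S-phase members, against 42.8% of measured genes. A match describes letters only, and no binding was measured.

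**Figure D1:**
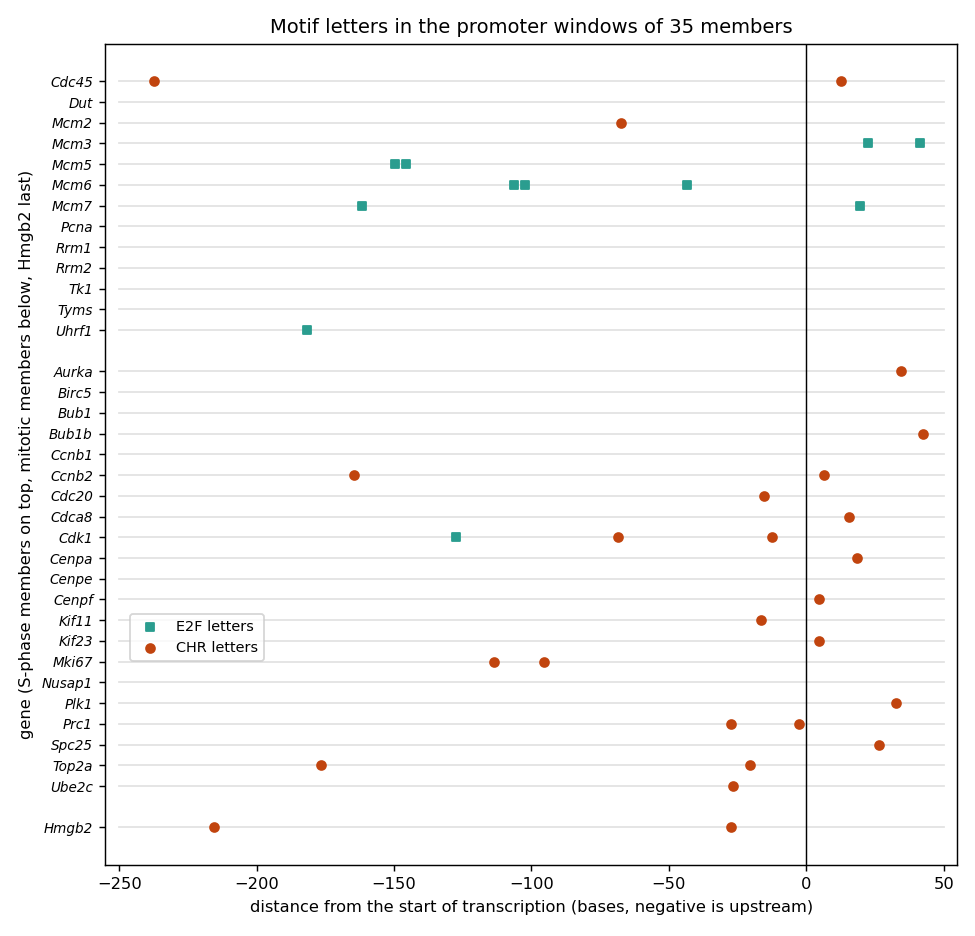
Position of E2F letters (squares) and CHR letters (circles) in the promoter windows of 35 members, in bases from the start of transcription, with 1 row per gene and, where a gene has more than 1 window, each match placed from its own start. Squares lie in 5 of 13 S-phase rows and 1 of 21 mitotic rows, and circles in 16 of 21 mitotic rows and 2 of 13 S-phase rows.

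Stretches that end before the annotated start are printed for a pair of helicase genes, 5′ to 3′ on the gene's strand, because they hold the E2F letters of the S-phase group in capitals. In both, matches on opposite strands overlap, so that a longer run is in capitals. They lie at Mcm5 chr8:75109319-75109508 (plus strand) and Mcm6 chr1:128359706-128359895 (minus strand).
Mcm5: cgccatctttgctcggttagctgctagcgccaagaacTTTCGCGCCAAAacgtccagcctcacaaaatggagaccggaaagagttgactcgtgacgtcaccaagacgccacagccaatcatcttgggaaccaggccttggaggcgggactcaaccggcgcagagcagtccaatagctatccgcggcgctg
Mcm6: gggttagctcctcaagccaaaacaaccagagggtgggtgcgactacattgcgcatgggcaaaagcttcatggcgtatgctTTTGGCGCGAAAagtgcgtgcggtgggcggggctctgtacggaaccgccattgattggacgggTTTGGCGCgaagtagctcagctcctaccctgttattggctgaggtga

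For the mitotic group, 6 stretches are shown because their genes carry the differences described further on, with CHR letters (TTTGAA, or TTCAAA on the other strand) and CCAAT letters (or ATTGG) in capitals. They lie at Cdk1 chr10:69352939-69353032 (minus strand), Ccnb2 chr9:70421555-70421744 (minus strand), Cdc20 chr4:118437353-118437463 (minus strand), Kif11 chr19:37376262-37376381 (plus strand), Top2a chr11:99024190-99024309 (minus strand) and Mki67 chr7:135716380-135716499 (minus strand). The windows also hold CHR letters outside these stretches, which begin at base -15 in Cdk1, 4 in Ccnb2 and -179 in Top2a (negative is upstream of the start).
Cdk1: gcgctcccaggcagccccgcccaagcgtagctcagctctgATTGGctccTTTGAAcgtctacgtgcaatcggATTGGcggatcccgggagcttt
Ccnb2: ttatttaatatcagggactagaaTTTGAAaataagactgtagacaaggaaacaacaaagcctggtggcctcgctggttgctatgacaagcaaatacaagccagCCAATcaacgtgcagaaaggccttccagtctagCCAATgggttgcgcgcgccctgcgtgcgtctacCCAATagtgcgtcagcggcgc
Cdc20: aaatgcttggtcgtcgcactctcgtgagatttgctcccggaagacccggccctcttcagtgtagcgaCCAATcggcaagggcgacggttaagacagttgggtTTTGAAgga
Kif11: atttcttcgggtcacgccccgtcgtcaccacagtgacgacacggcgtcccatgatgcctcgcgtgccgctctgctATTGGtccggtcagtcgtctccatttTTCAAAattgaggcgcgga
Top2a: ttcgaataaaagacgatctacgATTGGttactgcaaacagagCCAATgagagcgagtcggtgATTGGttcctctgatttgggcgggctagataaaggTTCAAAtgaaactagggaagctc
Mki67: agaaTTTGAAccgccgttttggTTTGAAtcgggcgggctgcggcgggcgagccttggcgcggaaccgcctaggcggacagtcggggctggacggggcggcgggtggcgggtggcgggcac

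Levels are in counts per 1000000 reads (CPM), scaled by the authors with the trimmed mean of M values (TMM), and sets of 4 values follow the sequence cDC1, cDC2, CD103int DC, macrophage throughout. Estimated depth was 44425900 to 63817500 reads per library, so that a level of 10 CPM stood for 464 to 574 estimated reads. The libraries were not alike: 454, 19, 10 and 20 genes were at 0. The genes Gm26917 and Gm42418 together held 12.5%, 5.94%, 7.08% and 11.3% of the column sums. The part of such differences in the members' levels was not tested. Ranges in parentheses are 95% intervals of counting error only, and without replicate libraries no difference was checked against the spread between samples. The macrophage column has another name prefix than the other columns, and if this marks a batch, it cannot be told apart from the population. Defining genes followed the label for cDC1 (Xcr1 at 130.5, 1.72, 9.13 and 8.28 CPM), while the libraries labelled cDC2 and CD103int DC carried the macrophage gene Adgre1 (18.3, 262, 173 and 335 CPM) and had Flt3, a dendritic cell gene, under the level of macrophages (179, 15.8, 20.97 and 32.6 CPM). Markers of dendritic cells at large did not point one way, since 4 of them summed to 1219.7, 1511, 1387 and 621 CPM, with Itgax highest in cDC2 (769.7, 1438, 1280.2 and 516 CPM). The 6 cDC2 markers summed to 1374, 2182, 2548 and 2454 CPM, of which Mgl2 stood at 337, 368, 807 and 120.4 CPM, highest in the CD103int DC, and Irf4, Cd209a and Clec10a were highest in cDC1. Over 7 macrophage markers the sums were 595, 2809, 1793 and 3382 CPM, and over 8 cDC1 markers 2911, 638, 752 and 850.3 CPM. Exons of 10 members (Mcm7, Cdc45, Gins2, Tk1, Ccna2, Cdca8, Cdc20, Kif20a, Nusap1 and Prc1) overlap another gene on the opposite strand, and whether counting used the strand is not given in the sources used here.

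Other cells in the sorts could carry cell cycle transcripts, and their markers were measured beside the members. Of 7 epithelial tumour cell markers, 3 were analysed, with summed levels of 425, 120.1, 199.8 and 89.9 CPM, nearly all from Cdh1, which some dendritic cells also express. Epcam stood at 6.08, 1.23, 4.28 and 0.843 CPM and Krt8 at 3.20, 1.29, 1.03 and 1.12 CPM, so that Epcam and Cdh1 followed the sequence of levels that most members have. Of 7 T cell markers, 6 were analysed and summed to 12.9, 13.0, 0.923 and 5.78 CPM, and 5 NK cell markers summed to 11.01, 11.7, 0.853 and 3.61 CPM, lowest in the CD103int DC. Plasmacytoid dendritic cell markers (3 of 5) summed to 573, 74.9, 65.6 and 116 CPM, fibroblast markers (4 of 5) to 9.38, 44.6, 11.3 and 22.2 CPM, endothelial markers (3 of 4) to 472, 166, 100.5 and 299 CPM and neutrophil markers (2 of 5) to 9.99, 63.9, 35.4 and 158 CPM, while Cd79b, the B cell marker analysed of 5, stood at 2.77, 3.26, 1.43 and 3.68 CPM. Klrb1c (NK cells) and Pdgfrb (fibroblasts) were listed at 0 in cDC1. The part of such cells in the members' levels was not tested. In bulk RNA, fewer dividing cells and less transcript per dividing cell cannot be told apart.

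The members shared a division of the libraries into a high and a low pair. All 42 were higher in cDC1 and in the CD103int DC than in cDC2 and macrophages, and of these 4 comparisons per gene only that of Bub1b between cDC1 and cDC2 had a counting interval that held no difference. The highest level was in cDC1 for 30 members (71.4%) and in the CD103int DC for 12 (28.6%), against 34.0% and 18.3% of all genes. The lowest was in macrophages for 37 members (88.1%, all genes 31.1%) and in cDC2 for 5 (11.9%, all genes 15.5%). The sequence cDC1, CD103int DC, cDC2, macrophage from high to low held for 27 of 42 members, against 10.98% of the 13288 genes that reached 1 CPM in a library. It was the sequence of 14 of 15 S-phase members, Gins2 being the exception, and of 13 of 25 mitotic members. For 25 of 42 members, neighbours in the sequence had separate counting intervals, and for 17 at least 1 pair of neighbours overlapped. The 15 S-phase members summed to 980.1, 547, 806 and 349.5 CPM and the 25 mitotic members to 543, 235, 531 and 171 CPM.

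**Figure D2:**
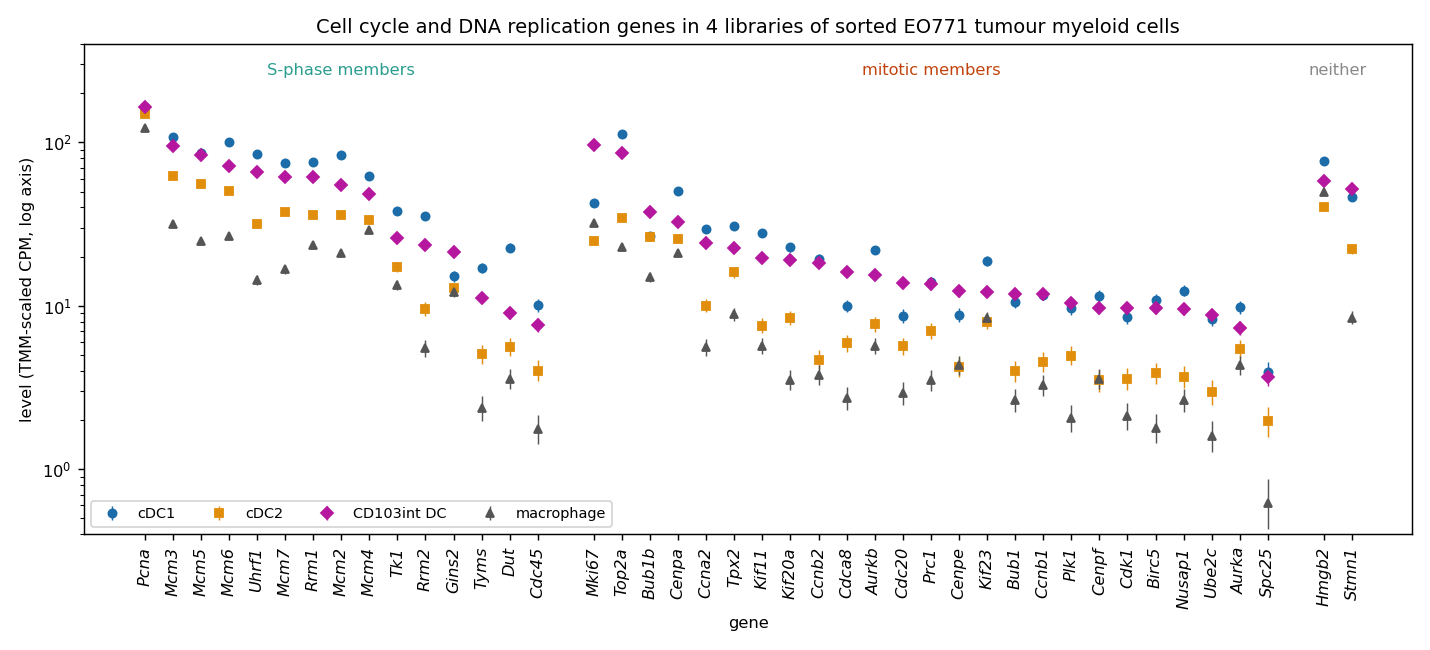
Level of each member (TMM-scaled CPM, log axis) in the 4 libraries, 1 point per library with its 95% counting interval, sorted within the S-phase and mitotic groups by the level in the CD103int DC. Circles (cDC1) and diamonds (CD103int DC) lie above squares (cDC2) and triangles (macrophage) for all 42 genes, closely for Pcna and by up to 7.18-fold for Tyms.

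The MCM helicase genes, which encode the 6 subunits of the ring that unwinds DNA, were all highest in cDC1 and lowest in macrophages. Mcm3 stood at 108, 62.7, 95.5 and 31.8 CPM, Mcm6 at 101, 50.4, 72.1 and 26.6 CPM and Mcm2 at 83.3, 35.8, 55.1 and 21.1 CPM. Mcm5 was at 85.7, 55.4, 83.4 and 24.8 CPM, with cDC1 and the CD103int DC not separated beyond counting error. Mcm4 (62.5, 33.5, 48.3 and 29.2 CPM) had the narrowest span of the 6 subunits, at 2.14-fold between highest and lowest library, and Mcm7 (75.2, 37.3, 61.6 and 16.7 CPM) the widest, at 4.49-fold. Per kilobase of annotated exon the 6 subunits lay between 12.0 (Mcm2) and 28.7 CPM (Mcm3) in cDC1 and between 3.03 and 8.47 CPM in macrophages, from the same genes. Cdc45, which joins MCM and GINS to form the active helicase, was low, at 10.1, 4.01, 7.63 and 1.76 CPM. Gins2, a GINS subunit, was the S-phase member that stood apart, at 15.1, 12.8, 21.3 and 12.2 CPM, 1.41-fold (1.28 to 1.54) above cDC1 in the CD103int DC and level between cDC2 and macrophages within counting error. Its exons are among those that overlap another gene.

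Genes that supply deoxynucleotides included the widest spans of the S-phase group, those of Tyms, Rrm2 and Dut. Rrm2, the regulated subunit of ribonucleotide reductase (ENSMUSG00000020649.11, chromosome 12, 24708241 to 24714146, plus strand), stood at 35.5, 9.57, 23.4 and 5.50 CPM, and was 2.45-fold (2.20 to 2.73) higher in the CD103int DC than in cDC2 but 1.51-fold (1.41 to 1.62) under cDC1. Rrm1, the large subunit, followed with a narrower span, at 75.6, 35.9, 61.0 and 23.5 CPM. Tyms, which makes thymidylate, was at 17.0, 5.04, 11.2 and 2.36 CPM and the annotation holds a Tyms pseudogene, while Tk1, the thymidine kinase of the salvage pathway, stood at 38.2, 17.2, 26.1 and 13.4 CPM. Dut, which clears dUTP (ENSMUSG00000027203.15, chromosome 2, 125247190 to 125258608, plus strand), was high in cDC1 alone, at 22.7, 5.63, 9.02 and 3.57 CPM. Its level in the CD103int DC was 2.51-fold (2.26 to 2.80) under that of cDC1, and no other member was at least 2-fold lower in that comparison.

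At the replication fork, Pcna, the sliding clamp of the DNA polymerases (ENSMUSG00000027342.14, chromosome 2, 132249162 to 132253314, minus strand), was nearly level, at 165, 150.1, 165 and 123 CPM. Its span of 1.35-fold was the narrowest of the 42 members. Per kilobase of exon it was also the most abundant member in every library, at 69.0, 62.5, 68.7 and 51.2 CPM per kilobase. The annotation holds a pair of Pcna pseudogenes, and how reads shared with them were assigned is not given in the sources used here. Uhrf1, which carries DNA methylation over to the new strand, differed far more, at 85.1, 31.7, 65.8 and 14.3 CPM, and was 2.07-fold (1.95 to 2.21) higher in the CD103int DC than in cDC2.

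Among cyclins and their kinase, Ccnb2, a B-type cyclin of mitotic entry (ENSMUSG00000032218.7, chromosome 9, 70407692 to 70421547, minus strand), had the widest gap between the CD103int DC and cDC2. It stood at 19.4, 4.68, 18.3 and 3.77 CPM, so that cDC1 and the CD103int DC were high and overlapped within counting error, and cDC2 and macrophages were low. Its level in the CD103int DC was 3.91-fold (3.37 to 4.55) that of cDC2. Ccna2, the cyclin of S phase and G2, was at 29.6, 10.03, 24.1 and 5.57 CPM and had a span of 5.31-fold between its highest and lowest library, beside 5.14-fold for Ccnb2. Ccnb1 (11.7, 4.55, 11.8 and 3.26 CPM) and Cdk1, the kinase that both B cyclins activate (8.56, 3.56, 9.67 and 2.11 CPM), were level between cDC1 and the CD103int DC within counting error. All 4 genes were at least 2-fold higher in the CD103int DC than in cDC2 and in macrophages. Ccnb1 and Ccnb2 each have an annotated pseudogene.

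The mitotic kinases and the chromosomal passenger complex, which corrects faulty attachments of chromosomes, showed the same division with different spans. Aurkb, the kinase of that complex, stood at 22.0, 7.70, 15.3 and 5.66 CPM, and its partner Birc5 (survivin) at 10.9, 3.88, 9.65 and 1.78 CPM. Cdca8 (borealin), the third partner listed, was highest in the CD103int DC, at 9.97, 5.91, 16.1 and 2.71 CPM and 1.62-fold (1.45 to 1.81) above cDC1. Plk1, which acts from mitotic entry to cell division, was at 9.66, 4.96, 10.4 and 2.05 CPM. Aurka, the kinase of the spindle poles, differed less, at 9.81, 5.43, 7.30 and 4.32 CPM.

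Genes of the spindle checkpoint and of the anaphase-promoting complex followed. Cdc20, the activator of that complex, was highest in the CD103int DC, at 8.68, 5.65, 13.7 and 2.91 CPM and 1.58-fold (1.40 to 1.78) above cDC1. Ube2c, its ubiquitin-conjugating enzyme, stood at 8.26, 2.95, 8.80 and 1.59 CPM and the checkpoint kinase gene Bub1 at 10.6, 3.97, 11.9 and 2.64 CPM. Bub1b (BubR1) did not share the gap between cDC1 and cDC2, at 26.9, 26.5, 37.3 and 14.9 CPM, and in the CD103int DC was 1.39-fold (1.30 to 1.49) above cDC1.

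Kinetochore and spindle genes completed the mitotic group. Cenpa, the histone variant that marks centromeres, was the most abundant of the kinetochore genes per kilobase of exon (8.64, 4.36, 5.56 and 3.58 CPM per kilobase) and the least different, at 50.6, 25.5, 32.6 and 20.998 CPM. Cenpe, a kinesin of the kinetochore, stood at 8.81, 4.25, 12.3 and 4.32 CPM and Cenpf at 11.5, 3.49, 9.68 and 3.57 CPM, with cDC2 and macrophages level within counting error for both. Spc25 of the NDC80 complex was low, at 3.93, 1.96, 3.69 and 0.623 CPM, and 1 library of 4 was under 1 CPM. Of the spindle genes, the motor genes Kif11 (28.1, 7.55, 19.6 and 5.68 CPM), Kif20a (22.8, 8.39, 19.1 and 3.54 CPM) and Kif23 (18.8, 7.95, 12.2 and 8.41 CPM) were highest in cDC1, and Kif23 did not separate cDC2 from macrophages. Nusap1, Prc1 and Tpx2, which bundle or nucleate microtubules, spanned 4.69-fold, 3.99-fold and 3.49-fold between their highest library, cDC1, and their lowest, macrophages.

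Top2a and Mki67, both widely used to mark cycling cells, did not give the same picture. Top2a, which untangles replicated DNA (ENSMUSG00000020914.17, chromosome 11, 98992943 to 99024189, minus strand), was highest in cDC1, at 113, 34.6, 86.3 and 22.9 CPM. Mki67, which coats mitotic chromosomes (ENSMUSG00000031004.8, chromosome 7, 135689784 to 135716361, minus strand), was highest in the CD103int DC, at 42.7, 25.05, 95.8 and 32.3 CPM. Relative to cDC1 the CD103int DC had 2.25-fold (2.14 to 2.36) more Mki67 and 1.31-fold (1.26 to 1.36) less Top2a. No other member was at least 2-fold above cDC1 there. It was also 1.29-fold (1.20 to 1.39) higher in macrophages than in cDC2, while Top2a was 1.51-fold (1.40 to 1.63) higher in cDC2 than in macrophages.

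Stmn1 and Hmgb2, which belong to neither group, differed from each other. Stmn1 (stathmin, which destabilises microtubules, ENSMUSG00000028832.11, chromosome 4, 134468320 to 134473843, plus strand) stood at 46.2, 22.2, 51.6 and 8.47 CPM and was 6.10-fold (5.52 to 6.74) higher in the CD103int DC than in macrophages, the widest gap of the 42 members in that comparison. Hmgb2, a chromatin protein gene, stood at 76.4, 40.4, 57.7 and 49.8 CPM, with macrophages above cDC2, and had the smallest gap in the same comparison, at 1.16-fold (1.10 to 1.22).

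By pairs of libraries, members were counted when they differed at least 2-fold on log2(CPM + 1), with at least 1 CPM in either library. All 42 passed that minimum in each of the 6 pairs. In the CD103int DC, 20 of 42 were at least 2-fold higher than in cDC2, against 1.95% of all genes tested, and 0 were lower (0.986%). The 20 comprised 16 of 25 mitotic members, 3 of 15 S-phase members (Rrm2, Tyms and Uhrf1) and Stmn1. Median differences on that log2 scale were 0.61 for S-phase and 1.18 for mitotic members, beside 0.00 for all genes, and 20 of 25 mitotic members lay above the S-phase median. Folds ran from 1.10-fold (Pcna) to 3.91-fold (Ccnb2), and no counting interval held 1. Adding 5 in place of 1 before the logarithm left 4 of 42 members at least 2-fold higher, and that constant weighs on the many mitotic members with low levels. The share of all genes with that constant is not given here, so this count cannot be set against the 1.95%.

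Between the CD103int DC and cDC1 the groups parted differently. Only Mki67 was at least 2-fold higher, where 10.1% of all genes were, and only Dut lower, where 6.77% were. S-phase members were mostly lower in the CD103int DC, 14 of 15, with a median of -0.36 (all genes 0.01), and 2 of them (Mcm5 and Pcna) had a counting interval that held no difference. Mitotic members were spread around 0, with 10 of 25 higher and 15 lower, a median of -0.08 and 8 intervals that held no difference. Ube2c, Plk1 and Ccnb1, counted here as higher, changed sign when the columns were rescaled to equal totals, and Dut did not reach 2-fold when 5 was added in place of 1.

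Against macrophages, 34 of 42 members were at least 2-fold higher in the CD103int DC (all genes 5.17%) and 0 lower (6.62%), with medians of 1.40 for S-phase and 1.63 for mitotic members. Those that did not reach 2-fold were Pcna, Mcm4, Gins2, Tk1, Aurka, Cenpa, Kif23 and Hmgb2. In cDC1, 36 of 42 were at least 2-fold higher than in macrophages (11.4%) and 23 of 42 higher than in cDC2 (8.0%), with 0 lower in either comparison (all genes 14.3% and 10.6%). The S-phase median was 1.89 against macrophages and 1.05 against cDC2, and the mitotic median 1.67 and 1.15. The cDC2 count was 12 of 42 when 5 was added in place of 1, a setting for which the share of all genes is not given here.

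The libraries of cDC2 and macrophages were the nearest pair on the low side. Here 5 of 42 members were at least 2-fold higher in cDC2 (2.45% of all genes), namely Mcm5, Mcm7, Uhrf1, Kif20a and Stmn1, and 0 lower (4.66%). Medians were 0.74 for S-phase and 0.55 for mitotic members. Mki67, Hmgb2, Kif23, Cenpf and Cenpe were higher in macrophages, the last 3 within counting error, and these 3 changed sign with columns rescaled to equal totals. That rescaling moved the median of all genes by 0.25 and raised the count to 14 of 42. The count was 11 with 0.1 added in place of 1, and 2 with 5. It was 3 of 32 without members whose exons overlap another gene, as Mcm7 and Kif20a are among those left out. For these alternatives the share of all genes at least 2-fold apart is not given here.

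**Figure D3:**
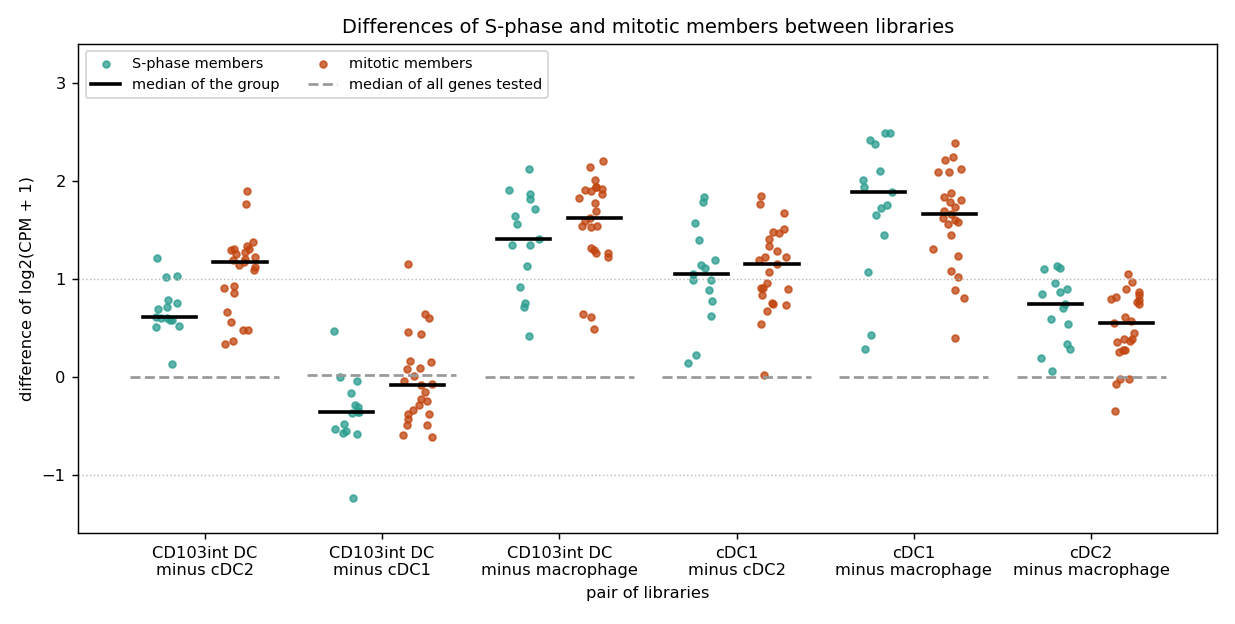
Difference of log2(CPM + 1) for each S-phase and mitotic member in the 6 pairs of libraries, 1 point per gene, with the median of each group (black) and of all genes tested (dashed), and dotted lines at a 2-fold difference. For the CD103int DC minus cDC2 the mitotic median (1.18) lies above the S-phase median (0.61), and for the CD103int DC minus cDC1 both lie at or below 0 (-0.08 and -0.36).

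The balance of mitotic to S-phase transcripts can be read within each library. Scaling between columns has no part in a ratio of sums, though it acts on means of log2(CPM + 1) through the added 1. Summed mitotic levels came to 55.4% (54.6 to 56.2) of summed S-phase levels in cDC1, 43.02% (42.1 to 44.0) in cDC2, 65.9% (65.0 to 66.9) in the CD103int DC and 48.8% (47.6 to 50.1) in macrophages. The CD103int DC thus had the highest share and cDC2 the lowest, with separate counting intervals. Sums weigh abundant genes most. The mean of log2(CPM + 1) over mitotic members minus that over S-phase members was -1.56, -1.62, -1.25 and -1.43. By that measure the CD103int DC was again highest and cDC2 lowest, but macrophages stood above cDC1. The added 1 raises low levels most, and the median mitotic level was 12.4 CPM in cDC1 but 3.57 CPM in macrophages. Whether the order of macrophages and cDC1 by this measure comes from that constant was not tested. Without Mki67 and Top2a, left out after their values were seen as the most abundant mitotic members in the CD103int DC, the shares were 39.6%, 32.1%, 43.3% and 33.0%, with cDC2 and macrophages close together. Without Pcna, the most abundant S-phase member, they were 66.7%, 59.3%, 82.8% and 75.3%, so that macrophages then stood above cDC1 and cDC2, and the CD103int DC remained highest. The difference of means without Pcna was -1.44, -1.43, -1.10 and -1.22, with cDC1 and cDC2 close together. Among genes that are not members, 43 other mitotic genes summed to 96.3%, 70.1%, 102% and 74.0% of 28 other replication genes, with cDC1 and the CD103int DC close together and above the other libraries.

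**Figure D4:**
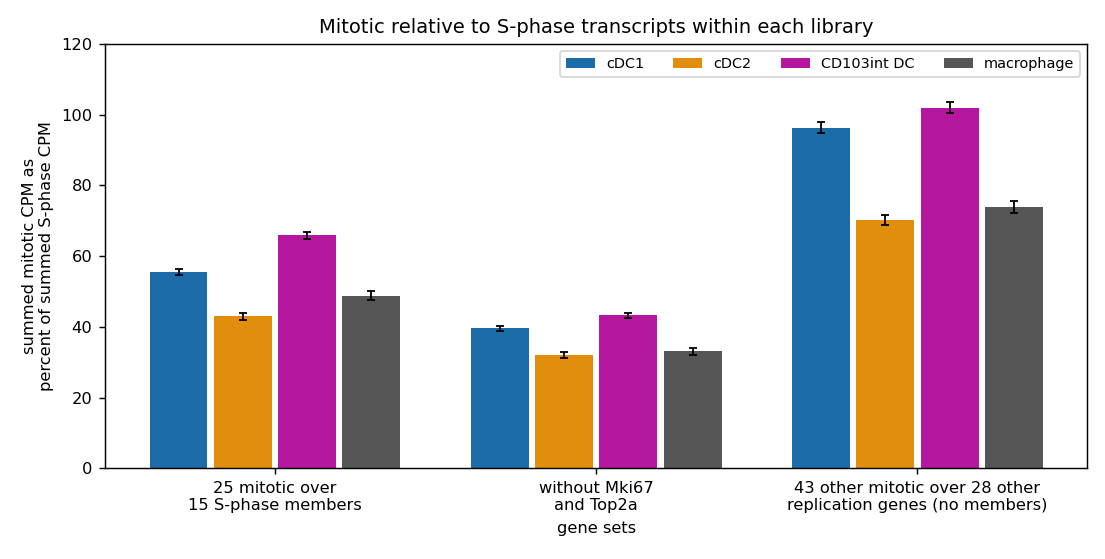
Summed level of mitotic genes as a percentage of the summed level of S-phase genes within each library, for the members, for the members without Mki67 and Top2a, and for 71 cell cycle genes that are not members, with 95% counting intervals. The CD103int DC bar is the tallest in each set (65.9% for the members), and the cDC2 bar the shortest.

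Other genes of the pathway were read from 6 lists of 104 genes, of which 102 were analysed. In the CD103int DC against cDC2, 19 of 43 other mitotic genes were higher by at least 2-fold, none being lower (median 0.99). So were 4 of 8 genes of fork protection and repair (median 0.93) and 2 of 28 genes of licensing and the polymerases (median 0.33). Of all genes tested, 1.95% were higher and 0.986% lower in this pair, with a median of 0.00. Knl1, a kinetochore scaffold (14.6, 3.13, 13.3 and 4.21 CPM), and Cdca3 (5.59, 2.95, 10.8 and 1.04 CPM) had the widest gaps of the mitotic list. Pttg1 (securin, 12.4, 16.7, 12.8 and 24.1 CPM) and Cks2 (8.54, 5.46, 5.67 and 8.57 CPM), at its other end, were highest in macrophages. In the fork list Brca2 (4.24, 1.94, 6.81 and 2.07 CPM) and Clspn (claspin, 7.07, 3.97, 11.7 and 1.87 CPM) were highest in the CD103int DC, and Tipin (13.6, 8.34, 11.3 and 5.81 CPM) and Chek1 (2.94, 2.41, 2.26 and 0.751 CPM) differed least. Mcm10 (20.2, 6.10, 14.2 and 3.24 CPM) and Pole, the leading-strand polymerase (15.9, 8.54, 18.3 and 3.41 CPM), led the licensing list, while Gins4 (23.6, 22.2, 21.9 and 14.6 CPM) and Rfc2 (36.2, 38.8, 36.5 and 39.7 CPM) were level between the CD103int DC and cDC2.

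For regulators of G1 the medians of the CD103int DC minus cDC2 were 0.22 for the E2F and Rb family, 0.25 for G1 cyclins and kinases and 0.35 for CDK inhibitors, beside 0.33 for the licensing list. Against cDC1 the G1 cyclins and kinases had a median of -0.48, and the licensing list of -0.02. None of 10 E2F and Rb family genes and none of 5 CDK inhibitors was at least 2-fold apart between the CD103int DC and cDC2, and of 8 G1 cyclins and kinases only Ccne1 was, at 10.4, 3.92, 9.75 and 1.92 CPM. As 1.95% of all genes were higher and 0.986% lower in this pair, these counts do not set the lists apart. Ccne2, the paralog of Ccne1, stood at 4.18, 3.44, 6.58 and 1.65 CPM. E2f7 (8.01, 1.40, 3.50 and 0.825 CPM) and E2f8 (16.1, 8.24, 15.9 and 8.48 CPM), repressors that are themselves targets of E2F, were also higher in cDC1 and the CD103int DC than in the other libraries, and E2f3 (15.6, 11.9, 11.9 and 10.9 CPM) and Rbl2 (27.0, 31.9, 32.8 and 37.2 CPM) did not. The D cyclins, which receive growth factor signals, were highest in cDC1, with Ccnd1 at 481, 222, 251 and 198 CPM, Ccnd2 at 223, 195, 160.1 and 163 CPM and Ccnd3 at 392, 125, 157 and 179 CPM, and their kinase gene Cdk6 at 157, 114, 112 and 123 CPM. Among the inhibitors, Cdkn1a (p21) ran from 222 CPM in cDC1 to 525 CPM in macrophages (222, 385, 401 and 525 CPM), and Cdkn1b (p27) was lowest in the CD103int DC, at 102, 66.8, 55.3 and 115 CPM. Cdkn2c (p18) had the sequence of most members, at 9.42, 5.26, 8.83 and 3.13 CPM, Cdkn2d (p19) stood out in cDC1, at 50.6, 8.60, 12.5 and 22.2 CPM, and Cdkn1c was near 1 CPM, at 0.489, 0.776, 1.27 and 1.31 CPM.

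**Figure D5:**
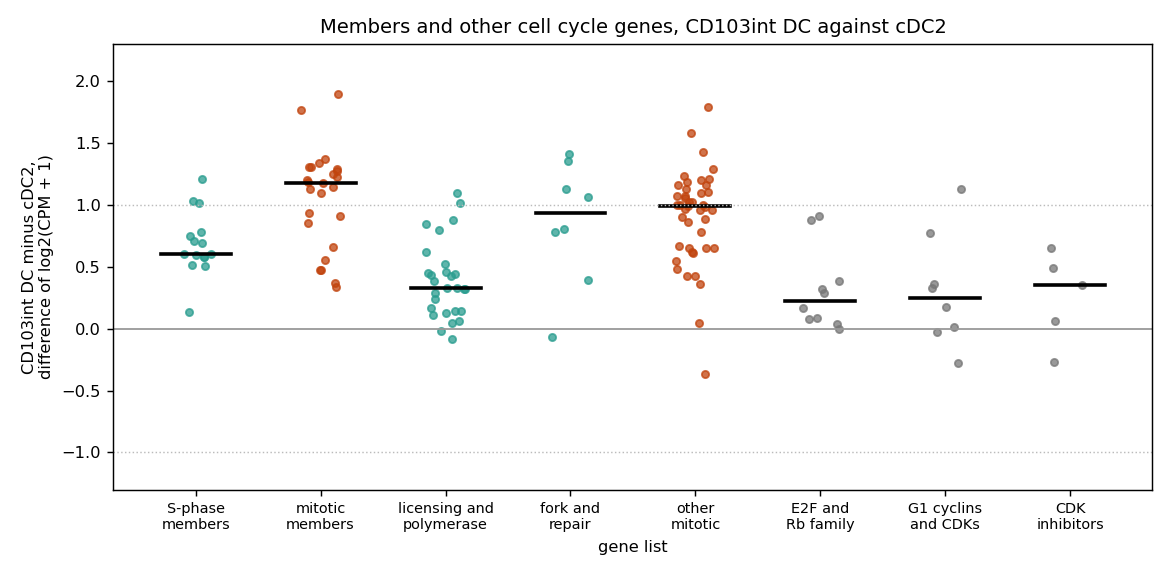
Difference of log2(CPM + 1) between the CD103int DC and cDC2 for the members and for 6 lists of other cell cycle genes, 1 point per gene with the median of each list (black) and dotted lines at 2-fold. Mitotic lists (medians 1.18 and 0.99) and the fork and repair list (0.93) lie above the S-phase members (0.61), the licensing and polymerase list (0.33), the E2F and Rb family (0.22), the G1 cyclins and kinases (0.25) and the CDK inhibitors (0.35).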

How the data were processed

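RNA of 4 sorted populations, 1 library each, was extracted with a column kit, treated with DNase I and made into directional libraries, per the labels' protocols. The authors deposited 1 table of 13976 genes, an expression signal that its name gives as CPM on library sizes scaled by TMM, after a filter whose rule is not stated. Column sums ran from 905670 to 1169346. The aligner, the counter and its strand setting, and the genome build: none is given in the sources used here. Identifier and symbol matched GENCODE release M21 (GRCm38) in all 13976 rows, and coordinates and exon lengths come from it. Promoter sequences are from RefSeq (GRCm38.p6).

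In each column a step taken as 1 read divides the values into hundredths, and 70.6% to 79.0% of values above 0 were whole reads at a tolerance of 0.001 of a read. These are estimated reads, so no count model was run, and with 1 library per population there is no test and no p-value. Levels have exact Poisson and folds exact conditional binomial intervals at 95%, on estimated reads, which cover counting error only. Differences use log2(CPM + 1), which understates the change of low genes. Named are all 42 members and, from each pathway list, the 2 highest and 2 lowest differences of the CD103int DC against cDC2, with all CDK inhibitors and D cyclins at 1 CPM or more. Members, lists and promoter motifs were chosen with earlier results of these data known. Alternatives were other scalings, added constants of 0.1 and 5, minimums of 0 and 10 CPM and leaving out members with exon overlap. Python 3.11.15, scipy 1.17.1 and pandas 2.3.3 were used.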

Additional observations from a re-analysis of the deposited data

How the results depend on the processing

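No paired analysis was possible because each population had 1 library. Of 168 alternative values for 24 results, 144 kept near the main value, and none changed sign beyond the range used. For a count, near meant within 1.5 times. For a median it meant within the counting interval of the 1 member closest to it, moved onto the median. That range has the width of 1 gene's interval, and is wider where that gene had few reads. Under median-of-ratios scaling all 24 values did so, and with a minimum of 10 CPM also all 24. That minimum lowered counts by leaving members out, from 20 to 15 for the CD103int DC over cDC2. The 24 values with no minimum are part of the 144 but could not move, because all 42 members had at least 1 CPM in each pair. Columns rescaled to equal totals moved the median of all genes by 0.24 (CD103int DC minus macrophage), 0.34 (cDC1 minus macrophage), 0.25 (cDC2 minus macrophage), -0.10 (CD103int DC minus cDC1), 0.09 (cDC1 minus cDC2) and -0.01 (CD103int DC minus cDC2). Members moved with it. S-phase medians became -0.47 (CD103int DC minus cDC1), 1.66 (CD103int DC minus macrophage), 1.15 (cDC1 minus cDC2), 2.25 (cDC1 minus macrophage) and 0.998 (cDC2 minus macrophage), and mitotic medians 1.85 (CD103int DC minus macrophage) and 1.96 (cDC1 minus macrophage). The cDC2 minus macrophage count of members at least 2-fold higher became 14.

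The added constant acts most on low genes. With 0.1, mitotic medians were 1.91 (CD103int DC minus macrophage) and 1.96 (cDC1 minus macrophage), and the cDC2 minus macrophage count was 11. With 5, counts of higher members were 4 (CD103int DC over cDC2), 12 (cDC1 over cDC2) and 2 (cDC2 over macrophage), and the count of lower members was 0 (CD103int DC under cDC1). Shares of all genes are not given at these constants, so such counts cannot be set against them. Mitotic medians with 5 were 0.79 (CD103int DC minus cDC2), 1.09 (CD103int DC minus macrophage), 0.80 (cDC1 minus cDC2) and 1.03 (cDC1 minus macrophage), and S-phase medians 1.20 (CD103int DC minus macrophage), 0.94 (cDC1 minus cDC2), 1.61 (cDC1 minus macrophage) and 0.47 (cDC2 minus macrophage). Leaving out the 10 members with exon overlap, an alternative chosen after the data were seen, left 3 members at least 2-fold higher in cDC2 than in macrophages. That count fell because Mcm7 and Kif20a, both counted before, are among the 10. Depth limits the lowest members most: Spc25 in macrophages, at 0.623 CPM, had a counting interval from 0.431 to 0.871 CPM.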

Other observations

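Outside the members, some regulators of the cell cycle departed from the sequence of libraries seen in most members, though the CD103int DC stayed above cDC2. They were picked with their values in view. E2f2, an activating E2F, stood at 18.1, 27.5, 36.1 and 48.1 CPM in cDC1, cDC2, CD103int DC and macrophages, lowest in cDC1 and highest in macrophages. Rb1, the retinoblastoma gene, which holds E2F back, was at 49.2, 70.9, 75.0 and 104 CPM, in the same sequence. Cdkn1a shared it, at 222, 385, 401 and 525 CPM. E2f1 differed little between cDC1, cDC2 and the CD103int DC and was lowest in macrophages, at 21.3, 23.5, 26.4 and 15.2 CPM.

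Several of the members that were higher in macrophages than in cDC2 have long exons. Mki67 (10061 bases of annotated exon), Cenpf (15433) and Cenpe (8620) are 3 of the 6 members with at least 8000 bases. Their differences of log2(CPM + 1) for cDC2 minus macrophage were -0.35, -0.03 and -0.02. Those of Cenpf and Cenpe were within counting error and changed sign with columns rescaled to equal totals. The limit of 8000 bases was not a planned setting, and Kif23 (7901 bases, -0.07, within counting error) falls just under it. The 6 long members had a median of 0.28 and the 36 shorter ones of 0.72. All genes tested had a median of -0.22 for 2050 genes of at least 8000 bases and 0.05 for 10621 shorter ones. Spearman's rho of length with this difference was -0.34 over the 25 mitotic members, 0.19 over the 15 S-phase members, -0.19 over all 42 and -0.24 over 12671 genes. Over 101 other cell cycle genes it was 0.01, and with these added to the members the medians were 0.40 for 23 long and 0.54 for 120 shorter genes. These are descriptions across genes that share a pair of libraries, and the part of length in the members' differences was not tested.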
